A study of Homo sapiens with 4 samples.

Results

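The regions described here are the distal H3K27ac peaks found in OVCAR-3 and in none of 3 other cancer cell lines. H3K27ac, the acetylation of lysine 27 of histone H3, was profiled by ChIP-seq with 1 library in each of OVCAR-3 and SKOV-3, which are ovarian carcinoma lines, DU-145, a prostate carcinoma line, and COLO-205, a colon adenocarcinoma line. All 4 lines were untreated cultures, each an established line grown in its own medium with serum, so a difference between lines also covers a difference in medium. Members were selected on presence in the peak lists: an OVCAR-3 peak was kept when no base of it overlapped a peak of another line, and when its summit, the position of highest read pileup, lay more than 1 kb from every annotated start of a protein-coding transcript on hg19. Chromosomes 3, 19, X and Y and the window chr1:6000001-7000000 were left out. This gave 29440 members of 76093 OVCAR-3 peaks, out of 251138 peaks in the 4 lists together. Since overlap chose the members, their absence from the other lists is a description with no test, and with 1 library per line no value below has a replicate error.

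H3K27ac is laid down mainly by the acetyltransferases EP300 and CREBBP and marks active promoters and active enhancers. Enhancers are stretches of DNA that bind transcription factors and raise the transcription of genes that can lie far away. The factors sit on DNA free of nucleosomes, and the acetylated histones flank them, so a peak of this mark often lies beside a factor's binding site. Distal H3K27ac differs more between cell types than promoter H3K27ac does. In ovarian carcinomas of Müllerian type the lineage factor PAX8 and its partners are well known users of such elements.

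Summit sequences show the DNA at members near genes of the tissue's identity. Each is the summit of the strongest member within 50 kb of one of 6 genes of ovarian and Müllerian identity, as 101 bases of the plus strand of hg19, with matches to 10 of the 32 motifs searched in capitals, on either strand: the E-box at PAX8 and SLC34A2, an EGR motif at ESR1, an ETS motif at CLDN3, an AP-1 motif at SLPI and a TEAD motif at CDH6. The 10 motifs were those of AP-1, EGR, TEAD, SOX, GATA, HNF1, ETS, EHF and ELF3, SP and KLF, and ZEB and SNAI factors, and matches to the other motifs stand in lower case. These 6 summits were picked for display from those that hold 1 or more of the 10, and not every such summit is shown. Of the 19 summits read for genes of this list, 8 held 1 or more of the 10, 11 held none of them and 3 held letters of the Alu repeat. The same count was not made over all members, where the E-box alone was in 36.1% of windows of 201 bp. The 8 of 19 are therefore no result about these genes. PAX8 is the Müllerian lineage factor, ESR1 the estrogen receptor, CLDN3 a tight junction claudin, SLC34A2 a phosphate transporter, SLPI a secreted protease inhibitor and CDH6 a cadherin of fetal kidney and ovarian carcinoma. The CLDN3 summit lay 27647 bp from a CLDN3 start and 3771 bp from that of ABHD11. A peak of another line lay 131 bp from that member. The SLPI summit lay 1131 bp from a SLPI start, and the edge of its peak was within 1 kb of that start.
PAX8, chr2:114043396-114043496: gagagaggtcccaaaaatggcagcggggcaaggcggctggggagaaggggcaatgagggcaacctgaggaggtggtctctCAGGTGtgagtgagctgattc
ESR1, chr6:152002872-152002972: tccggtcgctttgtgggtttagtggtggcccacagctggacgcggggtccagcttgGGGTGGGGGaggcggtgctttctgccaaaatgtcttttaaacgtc
CLDN3, chr7:73156903-73157003: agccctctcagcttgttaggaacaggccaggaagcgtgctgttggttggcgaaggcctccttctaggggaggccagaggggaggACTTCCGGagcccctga
SLC34A2, chr4:25660304-25660404: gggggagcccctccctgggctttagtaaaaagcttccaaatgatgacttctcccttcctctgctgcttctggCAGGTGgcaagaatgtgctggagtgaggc
SLPI, chr20:43882024-43882124: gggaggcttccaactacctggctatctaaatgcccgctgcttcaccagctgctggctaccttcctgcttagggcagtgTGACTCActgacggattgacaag
CDH6, chr5:31208004-31208104: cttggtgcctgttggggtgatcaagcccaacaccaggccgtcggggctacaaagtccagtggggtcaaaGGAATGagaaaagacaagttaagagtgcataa

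Of 58353 OVCAR-3 peaks on the analysed chromosomes, 44264 were distal, and 66.5% of these were members. The other 14824 distal peaks overlapped another line. DU-145 peaks overlapped 23.6% of all distal OVCAR-3 peaks, COLO-205 peaks 13.3%, and SKOV-3 peaks 5.19%. The SKOV-3 list is short, with 14001 peaks against 76093 in OVCAR-3, so the low share for the other ovarian line is not a measure of likeness. The same rule applied to the other lists gave 57902 peaks in COLO-205, 84.9% of its distal peaks, then 40934 in DU-145 (74.7%) and 1954 in SKOV-3 (32.1%).

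Members were short and mostly of moderate strength. Their median width was 271 bp, with a 90th percentile of 557 bp, and was 619 bp when every list was limited to its 14001 strongest peaks. The median fold enrichment, the pileup at the summit over the local background as the peak caller gives it, was 5.15 (11.9 under that limit), and the median −log10 q was 9.27. The pileup recovered from the fold and the p-value had a median of 23 tags over a local background of 3.4. Distal peaks that overlapped another line had a median −log10 q of 10.9, a width of 331 bp and a pileup of 28 tags. The share of distal OVCAR-3 peaks that were members was nearly level at low strength, 71.0% for a −log10 q from 3 to 5 and 68.4% from 10 to 20, and was 38.1% at 50 or more. So the strongest distal peaks were more often shared, while 790 members still had a −log10 q of 50 or more. The drop at high strength belongs to the same lists that chose the members and is a description only.

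**Figure D1:**
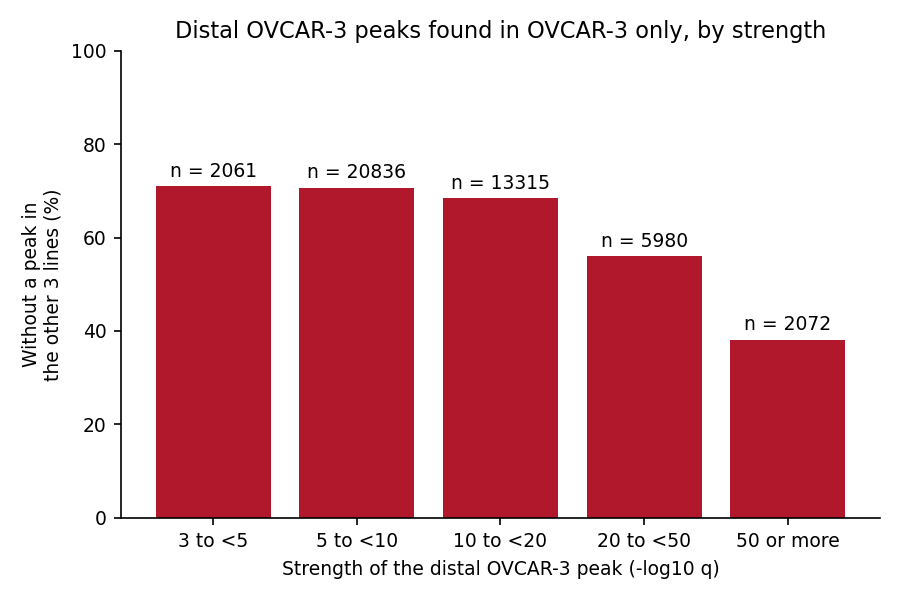
Share of distal OVCAR-3 peaks that overlap no peak of the other 3 lines (y axis, percent) by the peak's strength (x axis, −log10 q); n is the number of distal peaks in each class, and each bar is 1 library, with no error. The bars sit between 68.4% and 71.0% in the 3 weakest classes and at 38.1% in the strongest.

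Absence from the other lists was close in some cases. A peak of another line lay less than 350 bp away from 7.72% of members and 350 to 1000 bp away from a further 12.3%, while 46.5% were 1 to 10 kb, 28.3% were 10 to 100 kb and 5.12% more than 100 kb from the nearest such peak. The 174 members with a gap under 50 bp had a median fold of 4.43 and a median −log10 q of 7.80. The 202 distal peaks left out for an overlap of 50 bp or less had 4.31 and 7.25. At the other edge of the rule, the 158 members with a summit up to 100 bp beyond the 1 kb limit had a median fold of 4.73, and the 152 OVCAR-3-only peaks up to 100 bp inside it had 4.72. Values on the inner and outer side of each edge were thus close.

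The members were gathered in a small part of the genome. Of 2637 windows of 1 Mb on the analysed chromosomes, 106 held 50 or more members each, and these windows held 13085 members, 44.4% of the total. The densest 42 windows, with 100 or more each, held 29.7%. By chromosome, the density ran from 0.547 members per Mb on chromosome 13 to 33.7 on chromosome 17, with 25.5 on chromosome 20 and 24.1 on chromosome 11. Chromosome 13 had 63 members, against 99.4 COLO-205-only distal peaks per Mb on the same chromosome, and chromosome 14 had 10.4 members per Mb against 75.4 DU-145-only peaks.

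**Figure D2:**
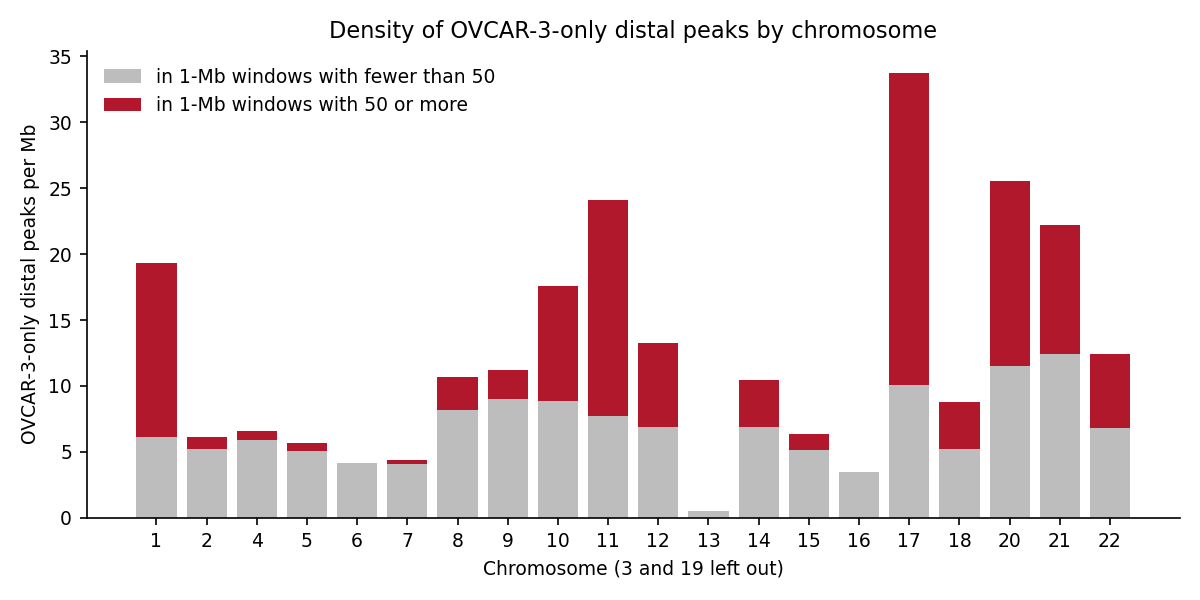
Members per Mb (y axis) on each analysed chromosome (x axis), stacked by whether the member lies in a 1-Mb window with 50 or more members (red) or in another window (grey). Chromosome 17 has the tallest bar at 33.7 per Mb and chromosome 13 the lowest at 0.547, and most of the height on chromosomes 1, 11 and 17 is red.

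The window with the most members, chr11:77000001-78000000, held 520, which covered 37% of its bases with a median fold of 12.7. It contains PAK1, a kinase that acts on the cytoskeleton, RSF1, a subunit of a chromatin remodeler, and GAB2, an adaptor of growth factor receptors. COLO-205 had 21 peaks there, DU-145 32 and SKOV-3 7. The 2 windows next to it on the left held 425 and 426 members, among them those at EMSY, a partner of BRCA2, and at WNT11, a secreted WNT ligand. The median pileup in the first window was 53 tags, against 23 for all members, while the median background was 3.01 against 3.4. At the peaks of that window which OVCAR-3 shared with another line, and which are not members, the OVCAR-3 pileup was also high: relative to the median over all shared peaks, its log2 ratio was 1.30 over COLO-205 (16 peaks), 1.65 over DU-145 (21 peaks) and 1.81 over SKOV-3 (2 peaks). The number of DNA copies of these windows was not measured here, and its part in the peak counts was not tested.

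The rise was shared by some dense windows and absent from others. Of the 106, 25 had a log2 ratio of 1 or more over at least 1 other line, counting a line only where it shared 3 or more peaks with OVCAR-3 in the window, and 5 had it over at least 2 lines. Counted likewise, the ratio was below 0 in 56 of 100 windows for COLO-205, 23 of 101 for DU-145 and 20 of 88 for SKOV-3. The same counts were not made for windows with fewer members, so 25 cannot be called a raised number. In chr12:27000001-28000000, with 208 members around BMAL2, a circadian clock factor, the ratio was 1.07 over COLO-205 (10 peaks), 2.01 over DU-145 (4 peaks) and 0.40 over SKOV-3 (13 peaks). In chr1:15000001-16000000, with 445 members around KAZN, which codes for a protein of cell junctions, the ratios in the same order of lines were −0.29, −0.16 and −0.20, and the median fold of members was 5.30. In chr20:48000001-49000000, with 352 members around SNAI1, a repressor of epithelial genes, they were −0.39, 0.18 and −0.22. Over all 106 windows, the median log2 ratio at shared peaks was −0.25 for COLO-205, 0.10 for DU-145 and 0.32 for SKOV-3. At shared peaks outside them it was 0.07, −0.04 and −0.03 in the same order of lines. Per window, these 106 windows held 11.8 times as many OVCAR-3 peaks as the other windows, but also 2.29 times as many COLO-205, 2.65 times as many DU-145 and 3.27 times as many SKOV-3 peaks. The first of these ratios rests on the members themselves, which chose the windows. Members inside the windows had a median fold of 5.13 against 5.16 elsewhere, a median −log10 q of 9.40 against 9.13 and a median width of 288 against 259 bp. A −log10 q of 50 or more was reached by 3.63% of those inside and 1.93% of the others.

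Joined wherever neighbours lay less than 10 kb apart, the members formed 11577 stretches, of which 966 had 5 or more members and held 47.0% of all members. The 966 became 516 at a −log10 q of 10 or more in every list, 455 without the dense windows and 34 with the 14001 strongest peaks of every list. The longest by count was chr1:15207080-15643283, with 276 members over 436204 bp at KAZN, TMEM51 and FHAD1, where COLO-205 had 34 peaks, DU-145 16 and SKOV-3 26. Next came chr10:76398182-76932447 with 259 members at KAT6B, a histone acetyltransferase, and ADK, adenosine kinase. Stretches of 245 and 220 members followed on chromosome 11, and chr18:46211715-46555776 held 204 at CTIF and SMAD7, the latter an inhibitor of TGF-beta signaling, where COLO-205 had 4 peaks, DU-145 8 and SKOV-3 21. By summed fold, the leader was chr11:76934437-77405256 at PAK1 and RSF1, with 2658 over its 220 members. Outside the 106 dense windows, the stretch with the most members was chr20:35421668-35511799 with 35 at SOGA1. Among the next was chr2:113957400-113994500 with 25 members at PSD4 and PAX8, where COLO-205 had 4 peaks, SKOV-3 3 and DU-145 none. These stretches outside the dense windows were chosen after their values were seen.

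The 10 strongest members by −log10 q included 3 with the start of SSPN as nearest coding start, and each of the others had a different one. Of the 3, chr12:26471427-26472032 lay outside SSPN, 123183 bp from that start, in an intron of the non-coding gene ITPR2-AS1. The strongest, chr12:26424377-26426144 in an intron of SSPN, which codes for a membrane protein of the dystrophin complex, had a fold of 30.9, a −log10 q of 261 and a pileup of 233 tags. The second, chr17:76360608-76363939, lay 5502 bp from the start of SOCS3, an inhibitor of cytokine signaling, in an intron of the non-coding gene SOCS3-DT. The highest fold of the 10, 43.9, was at chr1:165138612-165139131, outside annotated genes, with the start of LMX1A, a LIM homeobox factor, at a distance of 186075 bp. Its summit held letters of the Alu repeat, and its local background was 2.53 tags. A peak of 1561 bp in an intron of GLUD1, glutamate dehydrogenase, had a fold of 39.8. Other members of the 10 lay in introns of KCTD14 and GDPD5. The member at KLHL14 spanned 3549 bp with its summit 1067 bp from a coding start, so that this start lay within the peak. Another lay in no annotated gene, at a distance of 59602 bp from the nearest coding start, that of WNT11. The nearest peak of another line was 1384 to 174219 bp away from these 10.

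Most often members lay in introns. Introns of protein-coding genes held 50.5% of the summits, against 41.6% of the analysed bases, and 31.7% lay in no annotated gene, against 37.5% of the bases. Coding sequence held 2.20% (1.21% of bases), untranslated regions 1.93% (1.67%) and exons of non-coding transcripts 4.00% (2.59%). The distal peaks that overlapped another line had nearly the same intronic share, 50.7%. Members in the dense windows were intronic in 55.1% of cases and the others in 46.9%. The median distance to the nearest coding start was 24849 bp, against 17937 bp for shared distal peaks, and 15.7% of members were more than 100 kb from any coding start, against 9.50%. A start of a non-coding transcript lay within 1 kb of 9.15% of members and 15.1% of shared distal peaks.

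Sequence around the summits was GC-rich and often Alu-like. Alu elements are short interspersed repeats, GC-rich and present in very many copies across the human genome, and a window was called Alu-like when it held either of 2 runs of letters of the Alu consensus. In windows of 201 bp centred on the summit, the median GC content of members was 54.7%, against 39.3% in all windows of that length on chromosome 2. Of the member windows, 41.2% held GGATTACAG or GAGGCNGAG on either strand (95% exact binomial interval 40.6% to 41.7%, for counting error only). All windows of chromosome 2 held them in 9.83% of cases, and windows 500 bp to each side of the same summits in 17.3%. The pattern was not particular to OVCAR-3: the share was 38.1% in COLO-205-only, 46.9% in DU-145-only and 36.5% in SKOV-3-only distal peaks, and 34.2% in OVCAR-3 distal peaks shared with another line. At OVCAR-3 promoter peaks it was 11.7%. Among members it was 32.7% for a −log10 q from 3 to 5, 43.8% from 5 to 10 and 38.2% at 50 or more, so it was present at every strength. Members with these letters had a median fold of 5.35 and a median −log10 q of 9.13, and those without them 5.06 and 9.60. How reads that align to several repeat copies were handled was not tested.

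GC-rich motifs were more frequent at the summits, and AT-rich motifs less frequent, than on chromosome 2. The E-box CAGGTG, read by the repressors ZEB and SNAI, was in 36.1% of member windows and 13.8% of chromosome 2 windows. With Alu-letter windows left out it was in 29.6% of member and 11.1% of chromosome 2 windows, and in the Alu-letter windows alone in 45.5% and 38.3%. The SP and KLF motif GGGCGG was in 10.1% of members and 2.47% of chromosome 2 windows. The EGR motif GNGTGGGNG, also close to that of WT1, was in 7.48% and 3.0%. The excess of the EGR motif and the E-box over chromosome 2 was not particular to OVCAR-3. The EGR motif was in 9.08% of COLO-205-only, 5.15% of DU-145-only and 7.11% of SKOV-3-only distal peaks. In shared distal peaks it was in 9.71%. The E-box was in 33.8%, 37.05% and 36.5% of the only-peaks in the same order of lines. Among AT-rich motifs, the motif AGATAA of the GATA factors was in 3.20% of members against 15.3% of chromosome 2 windows. That of SOX factors (AACAATG) was in 1.06% against 4.24%. That of forkhead factors (TGTTTAC) was in 1.05% against 3.23%, and that of HNF1 factors (GTTAATNAT) in 0.10% against 0.94%. AGATAA was also below its chromosome 2 share in COLO-205-only (2.35%), DU-145-only (3.98%) and SKOV-3-only (3.99%) distal peaks. The CTCF core AGNNGGCGC was in 1.60% of members, below the 2.96% of shared distal peaks. GGGCGG was likewise less frequent than in shared distal peaks (16.3%), while a second KLF motif, GGGTGTG, was in 8.71% of members and 8.36% of shared distal peaks. All motifs were searched on both strands, and a match is a description of letters only.

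The AP-1 motif TGANTCA, bound by FOS and JUN dimers, was less frequent at the summits than on chromosome 2. At 500 bp from the summits its share was close to that of chromosome 2. The motif was in 4.09% of member summit windows (3.86% to 4.32%), against 6.44% of chromosome 2 windows and 6.39% of windows 500 bp to each side of the same summits. Where neighbouring members lay less than 500 bp apart, the window centred on the middle of the gap held AP-1 in 8.57% of 5073 cases (7.82% to 9.38%). The corresponding gaps of DU-145-only peaks held it in 9.91% of 6086 cases, those of COLO-205-only peaks in 5.45% of 6773, and those of SKOV-3-only peaks in 11.5% of 139. GC content in the members' gaps was 46.3%, lower than the 54.7% at the summits, and their share of Alu letters was 13.2%. Of the strongest members, with a −log10 q of 50 or more, 5.82% held AP-1 at the summit, an interval of 4.29% to 7.69% over 790 peaks. The set of gaps was added after the summit values were seen.

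**Figure D3:**
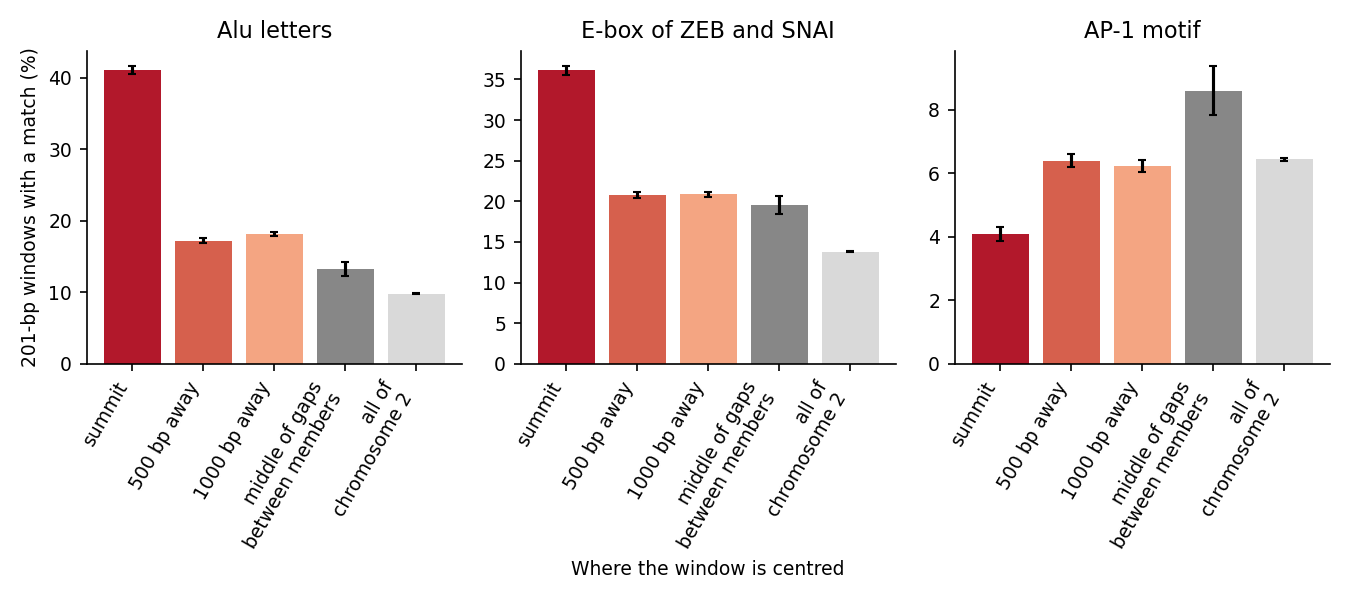
Share of 201-bp windows (y axis, percent) that hold Alu letters, the ZEB and SNAI E-box or the AP-1 motif, by where the window is centred (x axis): member summits, 500 and 1000 bp to each side, the middle of gaps under 500 bp between neighbouring members, and all of chromosome 2. Bars are shares and whiskers 95% exact binomial intervals for counting error; Alu letters stand at 41.2% at summits and 17.3% at 500 bp, while AP-1 stands at 4.09% at summits and 8.57% in the gaps.

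Genes near members were counted by list. Of 16371 protein-coding genes on the analysed chromosomes, 28.8% had 1 or more members within 20 kb of a start, and 12.6% had 5 or more within 50 kb. Of the 25 assessed genes of the Müllerian and ovarian carcinoma list, 20 (80.0%) had a member within 20 kb and 11 had 5 or more within 50 kb. With the dense windows left out, 17 of the 25 (68.0%) still had one, against 22.6% of all genes. With every list limited to its strongest 14001 peaks, 9 of 25 had one, against 5.38% of all genes. Genes with an active promoter in OVCAR-3 lie near members more often in general, 37.8% of the 9775 with a promoter peak, and of the 20 list genes with a promoter peak 19 had a member within 20 kb. The lists and the rule were chosen with results of these data known, and genes of a list are not replicates.

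PAX8 had 62 members within 50 kb, the most of the list, and 25 of them lay outside the dense windows. The strongest, chr2:114043038-114043697, was 6948 bp from a PAX8 start, had a fold of 12.3 and a pileup of 53 tags, and ended 725 bp from the nearest peak of another line. PAX8 promoters had a peak in all 4 lines. SLC34A2 had 28 members, with the strongest of the list by −log10 q, 91.8, at chr4:25659833-25660880 in its own intron (fold 24.1). SPON1, which codes for a secreted matrix protein, had 24, led by a fold of 23.3, and its promoter had a peak in OVCAR-3 but in no other line. WT1, a zinc-finger factor of serous carcinoma and of the gonadal ridge, had 12, with a fold of 11.3 at chr11:32402749-32404107. SOX17, a partner of PAX8, also had 12, led by a fold of 16.9. All the members at SLC34A2, SPON1 and SOX17 lay in dense windows. The FOLR1 gene of folate receptor alpha had 11, the keratin gene KRT7 had 10 and the mucin gene MUC1 had 9. For FOLR1, KRT7 and MUC1, the strongest member had another gene's coding start as its nearest: FOLR3, KRT80 and MTX1.

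Other genes of the list had fewer. CLDN3 had 8 members within 50 kb, led by a fold of 11.8, and CLDN4 had 4, led by a fold of 5.79. EPCAM, an epithelial adhesion molecule, had 1, with a fold of 5.21. MSLN (mesothelin) had 4 and WFDC2, the gene of the serum marker HE4, had 3. EMX2, a homeobox factor of the Müllerian duct, had 5, CDH6 4, CRABP2 4, MEIS1 2 and SLPI 1. Among HOXA genes, HOXA7 had 7 members within 50 kb, HOXA9 4, HOXA10 2 and HOXA11 1, all from overlapping neighborhoods, and only HOXA7 had one within 20 kb. ESR1 had 3 members within 20 kb, led by chr6:152002444-152003119 in its intron with a fold of 13, and no OVCAR-3 peak at a promoter, where SKOV-3 had one. The nearest peak of another line was 125405 bp away from that ESR1 member. PGR, the progesterone receptor, and LYPD1 had no member within 50 kb. Another 8 genes of the list were not assessed, most on the chromosomes left out.

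Of the other lists, the epithelial, estrogen receptor target and immediate early genes stood above the background share with and without the dense windows, the prostate list stood above it only with them, and the others stood below it. In the epithelial list 13 of 22 genes had a member within 20 kb, led by RAB25, a GTPase of vesicle recycling, with 24 members within 50 kb, then the keratin gene KRT8 with 14, GRHL1 with 10 and EHF with 7. The strongest member near RAB25 lay in an intron of LMNA, and all the members at KRT8 lay in dense windows. CDH1, the E-cadherin gene, had none within 20 kb and 1 within 50 kb. Of 18 estrogen receptor targets 11 had one, led by XBP1, a factor of the unfolded protein response, with 13. Of 18 AP-1, EGR and immediate early genes 10 had one, with 22 members around FOS, 17 around BATF and 7 around FOSL2. All the members at FOS and FOSL2 lay in dense windows, and the share of that list was 38.9% with those windows left out. In the urogenital factor list 5 of 19 had one, a share below the background.

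The colon list gave 2 of 20, VIL1 and PHGR1, and within 50 kb VIL1, the gene of the microvillus protein villin, had 10 members, led by a fold of 12.2, and TFF3, a trefoil factor gene, had 5. The strongest member near VIL1 lay in coding sequence of SLC11A1, 31194 bp from a VIL1 start, and VIL1 had no promoter peak in OVCAR-3. The strongest near TFF3 lay in an intron of ABCG1, and all the members at TFF3 lay in dense windows. The colon factors CDX2 and HNF4A, the cadherin gene CDH17 and the stem cell receptor gene LGR5 had none within 50 kb. The hepatocyte list gave 1 of 20, the neuronal list 1 of 17, the haematopoietic list 3 of 19, and the mesenchymal list 5 of 24. In the mesenchymal list SNAI1 alone had 59 members within 50 kb, all in a dense window, and COL1A1 and SPARC had 3 each. In the prostate list 5 of 14 had one, a share of 35.7% that was 21.4% without the dense windows, led by SLC45A3 with 18. Over all genes, RERE had the most members within 50 kb (150), followed by UVRAG (123), RSF1 (120), FHAD1 (119) and FCHSD2 (113), all of them in dense windows of chromosomes 1 and 11. RERE codes for a nuclear receptor coregulator and UVRAG for an autophagy factor.

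**Figure D4:**
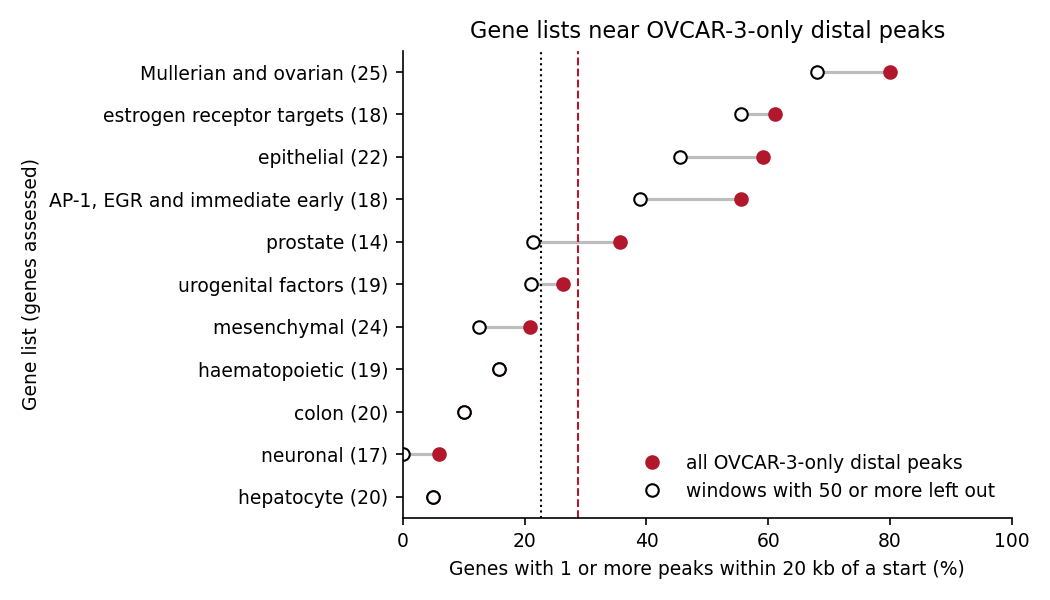
Share of each list's assessed genes with 1 or more members within 20 kb of a start (x axis, percent), by list (y axis, number of genes assessed in brackets), with all members (red) and with the dense windows left out (open). Vertical lines mark the share over all genes, 28.8% (dashed) and 22.6% (dotted); the Müllerian list stands at 80.0% and 68.0%, and the colon list lowest but for the neuronal and hepatocyte lists.

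Promoters of genes with many members nearby were more often marked in OVCAR-3. A promoter was called marked when a peak of any class lay within 1 kb of a start. Members are distal by summit, but 262 of them (0.890%) had an edge that near to a start. Of the 9154 genes with no member within 50 kb, 48.6% were marked in OVCAR-3, against 64.5% with 1 member, 81.2% with 5 to 9 and 91.3% with 10 or more. The shares rose in the other lines too, but less: from 45.9% to 69.0% in COLO-205, from 54.2% to 71.2% in DU-145 and from 26.9% to 45.3% in SKOV-3. Promoters marked in OVCAR-3 and in no other line made up 2.23% of genes with no member, 4.25% with 1 and 11.4% with 10 or more. With members not counted as promoter peaks, the shares for 10 or more members were 90.7% marked in OVCAR-3 and 10.8% marked in no other line. Among the 20 Müllerian genes with a promoter peak in OVCAR-3 were SLPI, SPON1, CLDN3 and LYPD1, which had none in the other lines, also with members not counted, and LYPD1 had no member within 50 kb. Over that list of 25, promoters were marked in 20 genes in OVCAR-3, 15 in COLO-205, 13 in DU-145 and 7 in SKOV-3. The shares over all 16371 genes were 59.7%, 51.6%, 60.9% and 32.0% in the same order of lines. Promoter and distal peaks came from the same OVCAR-3 library, and neighbouring genes share members, so these shares carry no test.

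**Figure D5:**
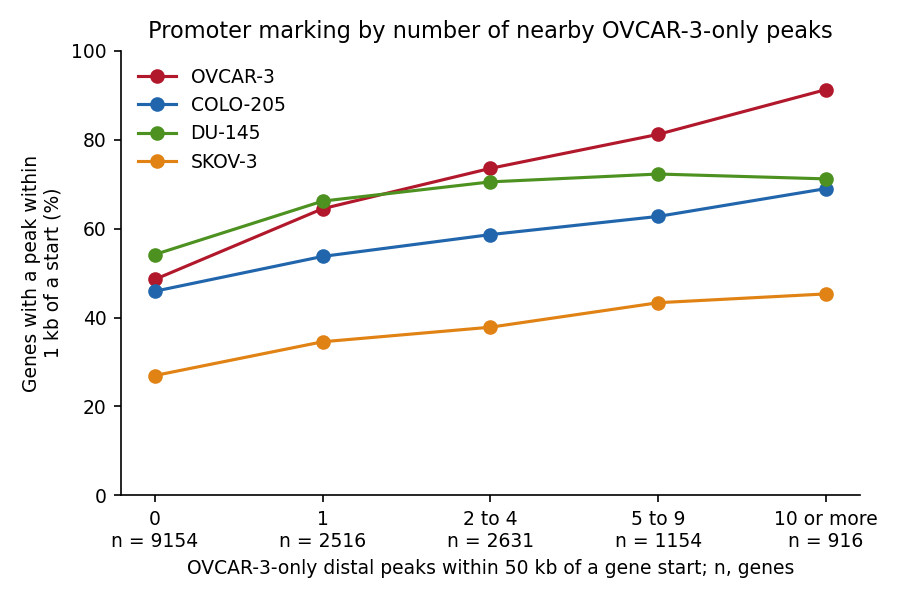
Share of genes with a peak within 1 kb of a start (y axis, percent) in each of the 4 lines, by the number of members within 50 kb (x axis, with the number of genes); each point is 1 library. The OVCAR-3 line climbs from 48.6% to 91.3%, and the other lines end between 45.3% and 71.2%.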

How the data were processed

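H3K27ac ChIP-seq gave 1 peak list for each of 4 cell lines. Per the labels and the study's methods, the authors mapped reads to hg19 with Bowtie2 2.1.0 and ran the narrow peak mode of MACS2 2.1.0.20150603 on every library with a q-value limit of 0.001. For every peak the deposited list gives a score (10 times the −log10 q), a fold enrichment ratio over local background, −log10 p and −log10 q, and no value was scaled across libraries. Merging of peaks closer than 350 bp is stated in the methods, but the deposited lists hold closer neighbours and were used unmerged. Read depth is not given in the sources used here, and input handling at peak calling was not checked.

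The members, gene lists, motifs and named genes were chosen with earlier results of these data known. Pileup was solved from fold and p in 99.9% or more of each list's peaks and tested on simulated data. Overlap meant at least 1 base. Starts and genes came from the GENCODE annotation lifted to hg19. Named genes were every Müllerian-list gene with a member within 20 kb, the 4 with most members within 50 kb of each other list, the 5 with most of all, the 10 strongest members and the 5 leading stretches by count and by summed fold. Sequences were read with pysam 0.24.0, and intervals came from scipy 1.17.1, under Python 3.11.15. One gene that this rule names, and some summit sequences, are not reported here. No test was made, since each line had 1 library.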

Additional observations from a re-analysis of the deposited data

How the results depend on the processing

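No paired analysis was possible because each line had 1 library, so no replicate could be left out either. With the SKOV-3 list left out, members numbered 30027. The number, width, fold, intronic share, AP-1 share and stretches of the members, the promoter share and the Müllerian count were recomputed with other peak thresholds, merging, overlap margins, distances and chromosomes. The number of members, 29440, became 28513 when every list was limited to −log10 q values of 5 or more, 16328 at 10 or more, 3099 with the 14001 strongest peaks of every list, and 16355 without the dense windows (chosen after seeing the data); its other 8 values, and the 28513, were within 1.5 times. The AP-1 share of 4.09% was 4.61% with equal lists, 10.2% in windows of 200 bp to each side and 4.54% without Alu-letter windows (also chosen after seeing the data). The windows of 200 bp to each side are longer than those behind 4.09%. No chromosome 2 share was made at that length, so 10.2% cannot be set against 4.09% directly. The share of marked promoters at genes with 5 or more members, 85.7%, was 87.5% after merging, 87.2% with the other lines' peaks widened by 1 kb, 93.1% with equal lists, 87.5% at 5 kb from starts, 83.4% without the dense windows, 80.1% within 100 kb and 85.3% with members not counted as promoter peaks (chosen after seeing the data). The Müllerian count of 20 of 25 genes (28.8% of all genes) ran from 9 of 25 with equal lists (5.38%) to 25 of 32 with chromosomes 3 and 19 and the chromosome 1 window kept (30.8%). Of 101 values in all, 67 stayed within a limit, which was the main value's interval for shares and medians and 1.5 times for counts. A share or median outside its interval could still lie within 1.5 times of the main value. With no counts of total reads, the depth of a library cannot be told apart from a line's number of marked regions, and absence from a list was not shown to be absence of the mark.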
